A study of Mus musculus with 12 samples.

Results

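Toll-like receptors, their co-receptors, and the first proteins they recruit were followed in *Rad21*-depleted hematopoietic stem and progenitor cells. The 10 genes were chosen by name for their place at the entry of the pathway, with earlier results of these data known. They are the surface receptors *Tlr1*, *Tlr2*, *Tlr4*, and *Tlr6* and the endosomal receptors *Tlr7* and *Tlr9*. With them are the co-receptors *Cd14* and *Ly96*, the adaptor *Myd88*, and the kinase *Irak2*. All 10 were found by gene identifier among the 46078 genes counted. The comparison asks whether the transcripts of the sensing machinery are lower when RAD21 is depleted, or only those of the genes it switches on. *Rad21* encodes a subunit of cohesin, the ring complex that holds sister chromatids together and extrudes chromatin loops.

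RNA-seq was available from 12 libraries of mouse cells (C57BL/6 by the labels) in 4 groups of 3. LSK cells are bone marrow cells that lack lineage markers and carry Sca-1 and c-Kit, and all groups received a lentivirus with an shRNA and GFP, so that infection and the shRNA cassette are shared by controls and knockdown cells. In culture, LSK cells that had received the luciferase (shLuci) or the *Rad21* (shRad21) hairpin were sorted as GFP+CD48-Sca-1+ cells 3 d after isolation, from serum-free medium with thrombopoietin and stem cell factor according to the methods of the study. In vivo, GFP+ LSK cells with the same constructs were sorted from lethally irradiated recipients 3 mo after transplantation by the labels. The text of the study gives a later time for these cells. Neither setting had an added Toll-like receptor ligand in its label. The knockdown is partial, which of the *Rad21* hairpins of the study was used in these libraries is not given in the sources used here, the labels give no age for the mice, and they also do not say which libraries came from separate cultures or animals, so p-values may measure technical spread only. The culture libraries were made with TruSeq RNA v2 and the in vivo libraries with SMART-Seq v4 and Nextera XT, so that kit, sorted population, and setting cannot be told apart.

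Toll-like receptors recognize microbial products. TLR2 pairs with TLR1 or TLR6 to sense bacterial lipopeptides, and TLR4 senses LPS together with MD-2, the product of *Ly96*, after CD14 has handed over the ligand. TLR7 and TLR9 sense nucleic acids in endosomes. All of these receptors signal through MYD88, which assembles IRAK kinases into a complex that leads to activation of NF-κB and MAP kinases, and LSK cells are known to respond to Toll-like receptor ligands directly.

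The upstream sequences of 4 of these genes are shown because *Tlr1*, *Tlr9*, and *Irak2* were lower together in shRad21 cultures whereas *Tlr2* did not pass the test. RefSeq promoter windows (GRCm38.p6) matched 6 of the 10 genes in 8 windows, and *Tlr4*, *Tlr7*, *Cd14*, and *Ly96* are named only. Each sequence is the 250 bases before the annotated transcript start, 5′ to 3′ on the strand of the gene, and capitals mark motif matches. The windows lie at chr3:83841609-83841858 on the minus strand for *Tlr2*, chr9:106222348-106222597 on the plus strand for *Tlr9*, chr5:64933559-64933808 on the minus strand for *Tlr1*, and chr6:113638217-113638466 on the plus strand for *Irak2*.
Tlr2: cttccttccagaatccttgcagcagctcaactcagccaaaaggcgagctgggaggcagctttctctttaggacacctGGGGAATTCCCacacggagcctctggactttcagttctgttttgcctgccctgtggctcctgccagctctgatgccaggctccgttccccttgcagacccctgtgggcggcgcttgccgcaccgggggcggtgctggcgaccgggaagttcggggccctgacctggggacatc
Tlr9: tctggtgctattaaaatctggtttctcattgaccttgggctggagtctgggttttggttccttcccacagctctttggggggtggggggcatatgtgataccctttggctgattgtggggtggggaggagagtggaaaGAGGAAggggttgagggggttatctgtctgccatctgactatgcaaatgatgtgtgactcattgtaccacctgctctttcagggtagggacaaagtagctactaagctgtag
Tlr1: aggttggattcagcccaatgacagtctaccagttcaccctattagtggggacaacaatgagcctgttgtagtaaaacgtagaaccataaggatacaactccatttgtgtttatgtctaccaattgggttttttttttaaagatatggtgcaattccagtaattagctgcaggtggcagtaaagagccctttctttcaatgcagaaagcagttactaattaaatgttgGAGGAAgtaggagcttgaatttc
Irak2: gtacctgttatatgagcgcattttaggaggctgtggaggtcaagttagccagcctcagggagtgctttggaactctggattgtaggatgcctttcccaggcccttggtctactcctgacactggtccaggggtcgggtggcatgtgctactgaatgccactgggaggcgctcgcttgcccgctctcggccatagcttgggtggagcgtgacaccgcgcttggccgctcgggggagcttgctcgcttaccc
Both strands were searched for the NF-κB consensus and for GAGGAA, the core bound by the myeloid factor PU.1. In the *Tlr2* window, overlapping NF-κB matches on both strands spanned the bases 173 to 163 before the start, and 7.25% of all 32851 windows of this length held such a match. The PU.1 core was found in the *Tlr9* window, 112 to 107 bases before the start, and in 1 of the 2 *Tlr1* windows, 23 to 18 bases before the start, and 23.3% of all windows held it. Neither motif was found in the windows of *Irak2*, *Myd88*, or *Tlr6*. A match describes the letters of the window only, and binding was not measured.

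In every library, *Rad21* followed the labels. Its level was 383, 418, and 405 CPM (counts scaled to library size with TMM factors over the 12 libraries) in shLuci cultures against 154, 137, and 128 in shRad21 cultures, and 118, 124, and 125 against 43.4, 47.6, and 43.6 in vivo. The log2 fold change was -1.52 in culture (adjusted p = 1.16e-05) and -1.43 in vivo (adjusted p = 8.82e-06 from the quasi-likelihood test of edgeR, adjusted by Benjamini-Hochberg over all genes, as for every adjusted p unless another tool is named). Libraries held between 15235129 and 29846689 counts, and 3 counts, taken as the floor, equalled 0.107 to 0.21 CPM. All 10 LSK markers examined were detected, with a summed level between 3170 and 3540 CPM in culture and between 4400 and 4780 CPM in vivo. Of these markers, 2 were lower and 5 higher in shRad21 cultures, and 3 were lower and 5 higher in vivo. *Kit* was at 676 to 827 CPM in shLuci and 266 to 293 CPM in shRad21 cultures, where the sort did not use c-Kit, and at 851 to 974 against 617 to 702 CPM in vivo, where it did. *Flt3* was at 168 to 211 against 67.0 to 116 CPM in culture and at 688 to 704 against 193 to 260 CPM in vivo. In bulk RNA, fewer cells that express a gene and less RNA per cell cannot be told apart.

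Knockdown of *Rad21* in culture lowered 4 of the 10 genes, *Irak2*, *Tlr9*, *Tlr1*, and *Cd14*, and raised *Ly96*, whereas in vivo 0 of the 9 genes tested passed the threshold in edgeR. The expression filter kept *Tlr9*, *Tlr1*, and *Cd14* through their shLuci cultures, where they were higher. The shRad21 cultures alone would not have kept them, so their calls are not independent of the filter. These calls also held without an expression filter. Across all genes tested, 8.06% were lower and 6.18% were higher in shRad21 cultures, and 5.32% were lower and 5.65% were higher in vivo. The median log2 fold change of the 10 genes in culture was -0.17, against -0.00391 over all genes, and the 5 genes that did not pass, *Tlr2*, *Tlr6*, *Tlr4*, *Tlr7*, and *Myd88*, had values between -0.20 and 0.45. Of these, *Tlr4* was called higher with the replicate block and by DESeq2. In vivo the median was -0.14 over 9 genes, 2 genes had an unadjusted p under 0.05 (*Irak2* and *Myd88*), and DESeq2 called 0.

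**Figure D1:**
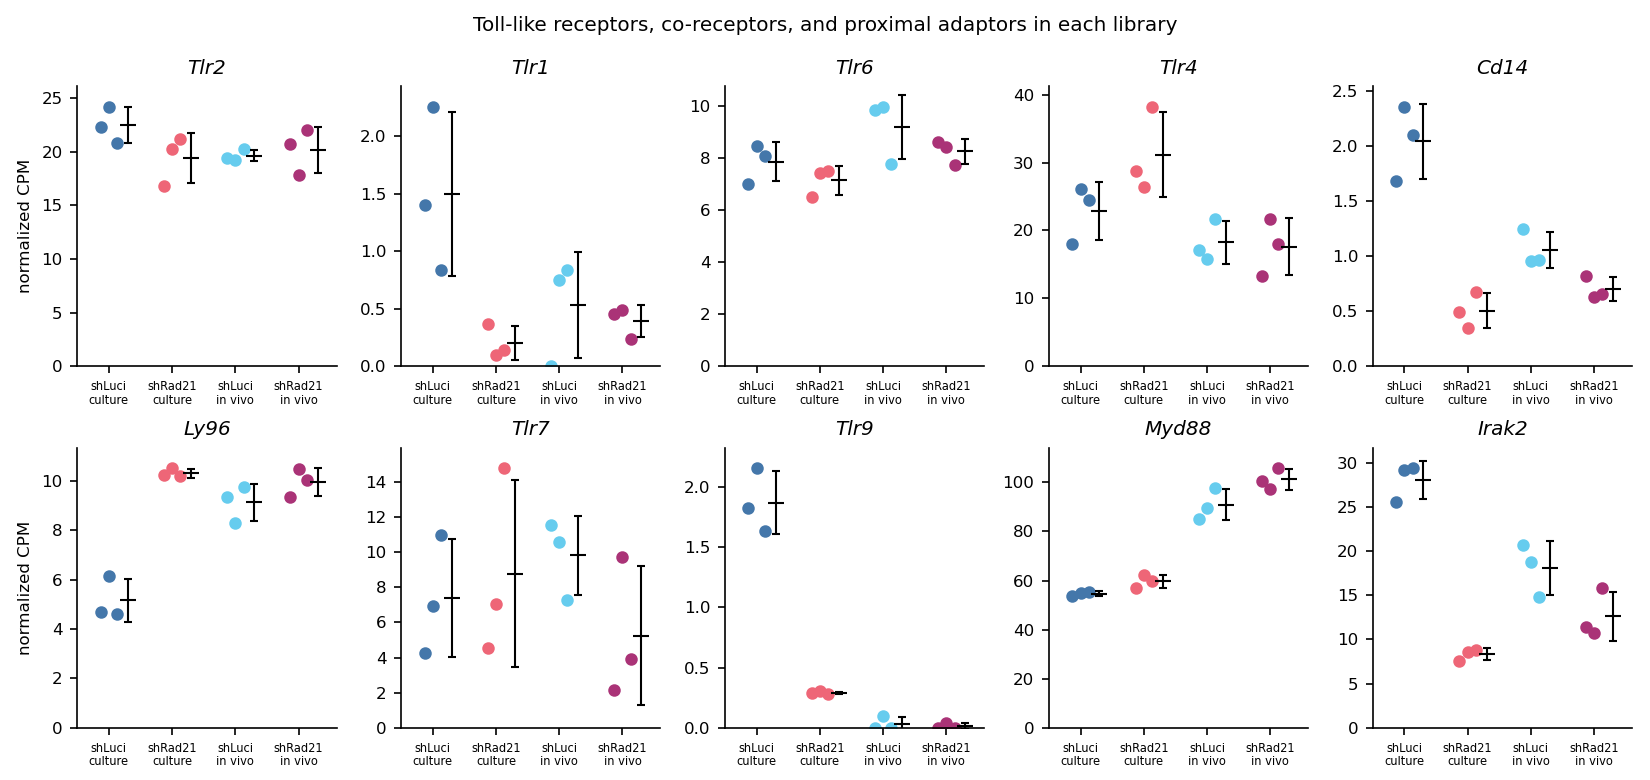
Normalized CPM (linear axis from 0) of each of the 10 genes in the 12 libraries, with the mean and SD of the 3 libraries of a group in black. *Irak2* is at 7.54 to 8.82 CPM in shRad21 cultures and at 25.5 to 29.4 CPM in shLuci cultures, while the points of *Tlr2*, *Tlr6*, and *Tlr7* overlap between shLuci and shRad21 in both settings.

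Of the surface receptors, *Tlr2* (chr3:83836272-83841767, minus strand, GRCm38), which forms both lipopeptide-sensing pairs, was at 22.3, 24.2, and 20.8 CPM in shLuci cultures and at 16.8, 20.2, and 21.2 CPM in shRad21 cultures. The groups overlapped, and the log2 fold change of -0.20 (95% interval -0.47 to 0.06) did not pass the test (adjusted p = 0.324). In vivo, *Tlr2* was at 19.4, 19.2, and 20.2 CPM in shLuci and 20.7, 17.8, and 22.0 CPM in shRad21 cells, with a log2 difference of 0.05 (95% interval -0.21 to 0.31, adjusted p = 0.844). Its 12 values spanned 16.8 to 24.2 CPM, and a change as large as that of *Irak2* lies outside both intervals. *Tlr6*, one of the partners of TLR2 (chr5:64952031-64960097, minus strand), was at 7.01, 8.47, and 8.07 CPM in shLuci and 6.51, 7.42, and 7.50 CPM in shRad21 cultures, and at 9.82, 9.96, and 7.78 against 8.60, 8.44, and 7.71 CPM in vivo. Both pairs of groups overlapped, with log2 differences of -0.13 in culture (95% interval -0.46 to 0.19, adjusted p = 0.637) and -0.14 in vivo (95% interval -0.49 to 0.21, adjusted p = 0.659).

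*Tlr1*, the other partner (chr5:64924679-64933563, minus strand), had few reads. Its level was 1.40, 2.26, and 0.84 CPM in shLuci cultures and 0.371, 0.101, and 0.142 CPM in shRad21 cultures, from 20, 44, and 18 counts against 9, 2, and 4. All shRad21 cultures lay under all shLuci cultures, and *Tlr1* fell by 2.81 on the log2 scale (SE 0.51, 95% interval -3.93 to -1.68, adjusted p = 0.00413). With each culture library left out in turn, the value ranged from -3.50 to -2.35 and the call held in all 6 fits. In vivo, *Tlr1* had 0, 15, and 19 counts in shLuci and 10, 11, and 5 counts in shRad21 cells, and replicate 1 at 0 made the groups overlap. The in vivo difference of -0.40 had a 95% interval from -2.36 to 1.57 (adjusted p = 0.844). The culture estimate lay just below this interval, while the intervals of the 2 settings overlapped. *Tlr1* and *Tlr6* are similar genes 18467 bases apart on the same strand, and how reads that fit both were assigned is not given in the sources used here.

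*Tlr4*, the LPS receptor (chr4:66827584-66930284, plus strand), was at 18.02, 26.1, and 24.5 CPM in shLuci cultures and 28.8, 26.5, and 38.2 CPM in shRad21 cultures. The lowest shRad21 value lay above the highest shLuci value by less than 1 CPM, and replicate 3 of shRad21 stood above the other two. The log2 difference of 0.45 (95% interval 0.09 to 0.81) did not pass the test (adjusted p = 0.0975). With the replicate number as a block, which the cultures' replicate numbers warrant, it was 0.45 with an adjusted p of 0.0122 in edgeR, and DESeq2 gave an adjusted p of 0.0488. In vivo, *Tlr4* was at 17.1, 15.9, and 21.7 CPM in shLuci and 13.3, 21.6, and 18.01 CPM in shRad21 cells, the groups overlapped, and the difference was -0.03 (95% interval -0.46 to 0.39, adjusted p = 0.948). No fit run placed *Tlr4* below its control level in culture.

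The proteins that present LPS to TLR4 moved in opposite directions in culture. *Ly96* (chr1:16688051-16709611, plus strand) was at 4.70, 6.16, and 4.62 CPM in shLuci cultures and at 10.2, 10.5, and 10.2 CPM in shRad21 cultures. The groups were far apart relative to their spread, and *Ly96* rose by 1.0 on the log2 scale (SE 0.16, 95% interval 0.65 to 1.35, adjusted p = 0.00179). In vivo, it was at 9.34, 8.30, and 9.76 CPM in shLuci and 9.33, 10.5, and 10.02 CPM in shRad21 cells, groups that overlapped (log2 difference 0.14, 95% interval -0.17 to 0.44, adjusted p = 0.617). *Cd14* (chr18:36725067-36726798, minus strand) was at 1.68, 2.36, and 2.10 CPM in shLuci and 0.494, 0.353, and 0.676 CPM in shRad21 cultures, from 24, 46, and 45 against 12, 7, and 19 counts. It fell by 1.97 on the log2 scale (SE 0.30, 95% interval -2.62 to -1.32, adjusted p = 0.00139). In vivo, *Cd14* was at 1.25, 0.956, and 0.972 CPM in shLuci and 0.823, 0.629, and 0.658 CPM in shRad21 cells. These groups did not overlap either, but the difference of -0.57 (95% interval -1.37 to 0.23) did not pass the test (adjusted p = 0.383).

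Of the endosomal receptors, *Tlr9*, the receptor for unmethylated CpG DNA (chr9:106222598-106226883, plus strand), was at 1.82, 2.16, and 1.63 CPM in shLuci cultures and 0.288, 0.303, and 0.285 CPM in shRad21 cultures. These values rest on 26, 42, and 35 counts against 7, 6, and 8, and the groups did not overlap. *Tlr9* fell by 2.65 on the log2 scale (SE 0.29, 95% interval -3.30 to -2.01, adjusted p = 0.000253), leaving 15.6% of the control mean. In vivo it had 0, 2, and 0 counts in shLuci and 0, 1, and 0 counts in shRad21 cells, all under the floor of 3 counts, so it was not tested there and no fold is given. *Tlr7*, a receptor for single-stranded RNA on the X chromosome (chrX:167304929-167330558, minus strand), varied widely between replicates. It was at 4.28, 6.93, and 10.97 CPM in shLuci and 4.53, 7.02, and 14.8 CPM in shRad21 cultures, so that in both groups replicate 1 was lowest and replicate 3 highest. The culture difference was 0.24 (95% interval -0.64 to 1.13, adjusted p = 0.767). In vivo *Tlr7* was at 11.6, 10.6, and 7.29 CPM in shLuci and 2.15, 9.70, and 3.90 CPM in shRad21 cells. Replicate 2 of shRad21 lay among the controls, and the difference of -0.88 (95% interval -1.88 to 0.12, adjusted p = 0.27) became -1.68 (adjusted p = 0.013) without that library.

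*Myd88*, the shared adaptor (chr9:119335934-119341411, minus strand), was the most abundant of the 10 genes. It was at 53.5, 54.8, and 55.4 CPM in shLuci and 57.1, 62.3, and 59.6 CPM in shRad21 cultures. The groups did not overlap, but the difference was small (log2 difference 0.14, 95% interval -0.04 to 0.31) and did not pass the test (adjusted p = 0.32). In vivo it was at 85.2, 89.5, and 97.6 CPM in shLuci and 100.6, 97.4, and 105.7 CPM in shRad21 cells, with a difference of 0.17 (95% interval 0.01 to 0.33, unadjusted p = 0.0364 and adjusted p = 0.171 in edgeR). Of its exonic bases, 11.26% overlap those of *Acaa1a*, whose reads there could not be told apart unless strand was used in counting, which is not given in the sources used here.

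The kinase gene *Irak2* (chr6:113638467-113695026, plus strand), whose product sustains signaling downstream of MYD88, had the smallest adjusted p of the 10 genes. It was at 25.5, 29.2, and 29.4 CPM in shLuci and 7.54, 8.58, and 8.82 CPM in shRad21 cultures. The shRad21 cultures kept 29.7% of the control mean, and *Irak2* fell by 1.75 on the log2 scale (SE 0.12, 95% interval -2.01 to -1.49, adjusted p = 1.53e-05). In vivo, it was at 20.7, 18.8, and 14.8 CPM in shLuci and 11.4, 10.7, and 15.8 CPM in shRad21 cells, where replicate 3 of shRad21 lay above replicate 3 of shLuci. The mean kept 70.0% of the control, and the difference of -0.50 (95% interval -0.91 to -0.09) did not pass the test (unadjusted p = 0.0209, adjusted p = 0.12 in edgeR). Of its exonic bases, 4.44% overlap the annotated gene *Gm43963*.

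**Figure D2:**
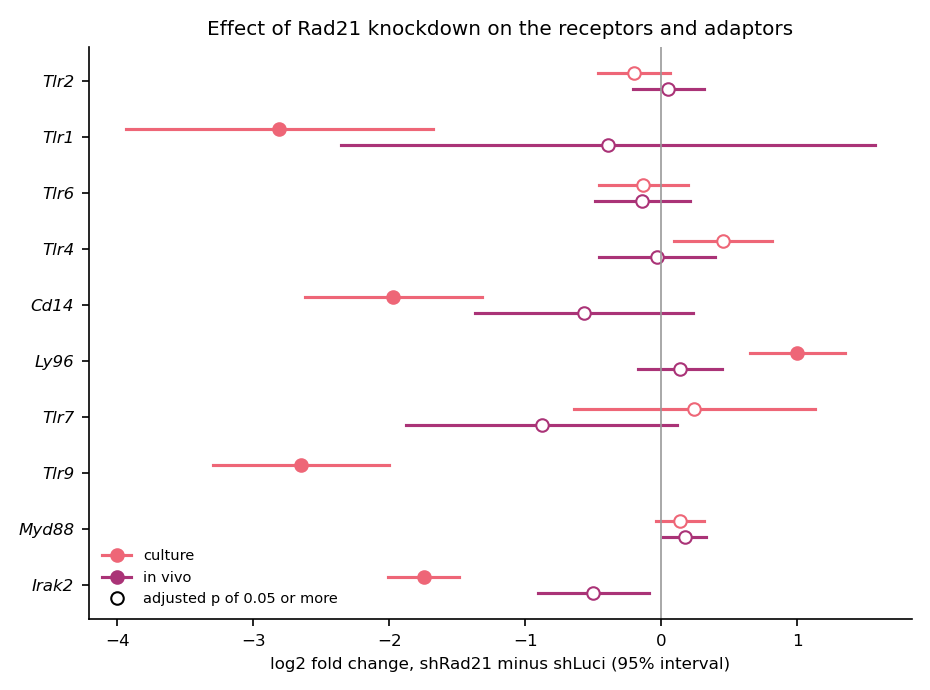
Log2 fold change of each gene, shRad21 minus shLuci, with its 95% interval, in culture and in vivo. Filled points have an adjusted p under 0.05 (5 of 10 in culture, 0 of 9 in vivo), and *Tlr9* has no in vivo point because it was not tested there.

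The knockdown effect differed between settings for 2 of the 10 genes, by an interaction test in a model of all 12 libraries in which 4.67% of all genes passed. For *Irak2* the log2 effect in culture minus that in vivo was -1.24 (95% interval -1.73 to -0.75, adjusted p = 0.0058), and the call held with each of the 12 libraries left out. For *Ly96* the difference was 0.87 (95% interval 0.44 to 1.31, adjusted p = 0.0246), and it missed the threshold in 7 of 12 fits that left out 1 library, with adjusted p up to 0.0696. *Cd14* had a difference of -1.39 (adjusted p = 0.103) and *Tlr1* of -2.41 (adjusted p = 0.273), both with wide intervals (-2.36 to -0.43 and -4.79 to -0.04). Without an expression filter, *Tlr1* (-2.44, adjusted p = 0.0376) and *Tlr7* (1.12, adjusted p = 0.00556) passed in edgeR and *Ly96* did not (0.85, adjusted p = 0.0588). *Irak2*, *Cd14*, and *Tlr1*, the 3 genes called lower in culture that were tested in vivo, had estimates closer to 0 in vivo, and of these the difference passed for *Irak2* alone in the filtered fit.

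Control cells themselves differed between the settings in 5 of the 10 genes, where 37.1% of all genes were lower and 37.1% were higher in shLuci cultures than in shLuci cells in vivo. *Myd88* (log2 difference -0.74, adjusted p = 3.62e-07) and *Ly96* (-0.82, adjusted p = 0.000148) were lower in culture. *Irak2* (0.63, adjusted p = 0.00209) and *Cd14* (0.95, adjusted p = 0.00988) were higher in culture. *Tlr9* was also higher, with 103 counts in all shLuci cultures against 2 in all shLuci libraries in vivo, a ratio of 60.7 after scaling (95% interval 16.4 to 508, covering counting error only). It passed the expression filter of this model through the shLuci cultures alone. The 4 surface receptors and *Tlr7* did not pass this test, with log2 differences between -0.39 and 1.49. For *Ly96*, shRad21 cultures (10.2 to 10.5 CPM) overlapped the in vivo libraries (8.30 to 10.5 CPM). The kit, the sort, and the setting cannot be told apart in this comparison. Upper-quartile scaling moved the median of all genes from -0.01 to -0.12 and library size alone to -0.18 (log2), DESeq2, which also tested more genes, gave -0.34, and all of them left these 5 calls in place.

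Per kilobase of exon (RPKM), *Myd88* had the highest level of the 10 genes in each group, with means of 21.2 and 23.2 in shLuci and shRad21 cultures and 35.2 and 39.3 in vivo. In shLuci cultures, *Tlr2* (7.44), *Irak2* (6.35), *Ly96* (5.05), and *Tlr4* (4.11) followed, then *Tlr6* (2.11), *Tlr7* (1.81), *Cd14* (1.18), *Tlr9* (0.538), and *Tlr1* (0.448). Neighbors in this order whose libraries overlapped were *Irak2* and *Ly96*, *Ly96* and *Tlr4*, *Tlr6* and *Tlr7*, *Tlr7* and *Cd14*, and *Tlr9* and *Tlr1*. In shRad21 cultures, *Ly96* (10.1) came second, and *Irak2* (1.88) stood seventh, overlapping *Tlr6* (1.92). In vivo, *Ly96* (8.95 in shLuci, 9.73 in shRad21) and *Tlr2* (6.51 and 6.69) followed *Myd88* in both groups without overlap, and *Irak2* (4.10 and 2.87) and *Tlr4* (3.28 and 3.18) overlapped. Of the 4 genes that fell in culture, *Cd14*, *Tlr9*, and *Tlr1* were thus the 3 with the lowest levels in shLuci cultures, and *Irak2* was among the 3 highest.

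**Figure D3:**
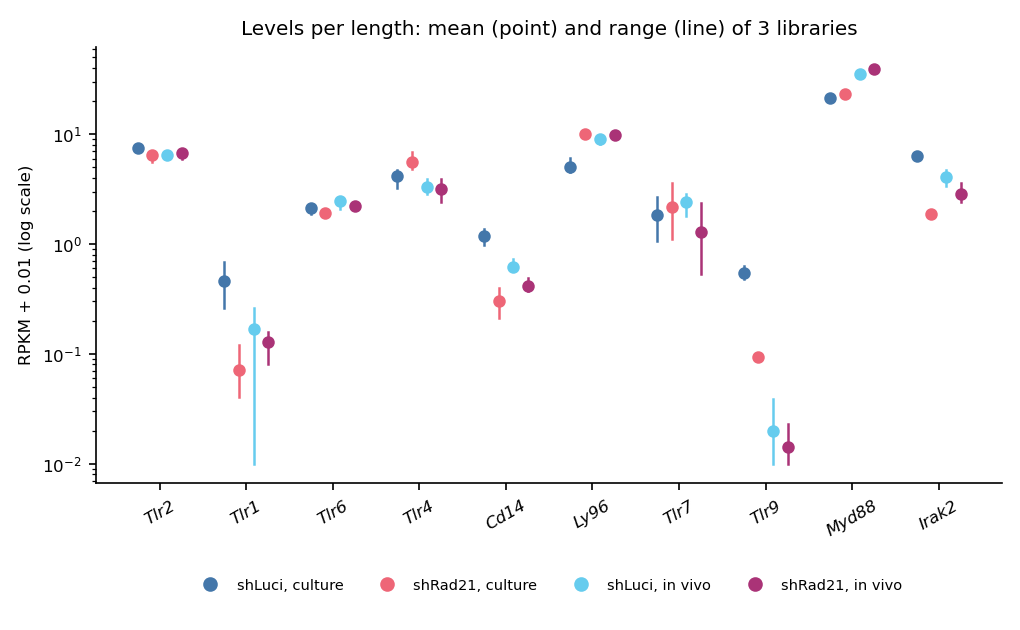
Mean (point) and range (line) of the 3 libraries of each group, in RPKM + 0.01 on a log axis. *Myd88* is highest in all groups, *Ly96* is lower in shLuci cultures (mean 5.05) than in the other groups (8.95 to 10.1), and *Tlr9* is near 0 in vivo.

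Other genes of the pathway were taken from lists by role. Of 49 tested in culture, 15 were lower and 3 higher, and of 52 tested in vivo, 10 were lower and 1 higher, with medians of -0.16 and -0.06 (log2). In vivo, 5.32% of all genes tested were lower and 5.65% were higher. With the replicate block, 17 were lower and 5 higher in culture, where the block raised the share of all genes called from 8.06% to 11.2% lower and from 6.18% to 9.31% higher. None of the other Toll-like receptor genes tested, 2 of 6 in culture and 3 of 6 in vivo, passed the threshold in edgeR. Among them, *Tlr12* was at 10.8, 9.54, and 17.1 CPM in shLuci and 15.9, 17.1, and 21.7 CPM in shRad21 cultures (log2 difference 0.55, adjusted p = 0.111, and 0.00251 with the replicate block in edgeR). In vivo it was at 15.4, 7.75, and 8.39 CPM in shLuci and 5.63, 7.72, and 4.70 CPM in shRad21 cells. There *Tlr12* had a log2 difference of -0.79, with an adjusted p of 0.119 in edgeR and of 0.0469 in DESeq2. *Tlr8*, the neighbor of *Tlr7* on the X chromosome, had at most 7 counts in any library.

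Of 7 accessory and trafficking genes tested in culture, 2 fell and 1 rose, and of 8 tested in vivo, 4 fell. *Unc93b1*, whose product carries TLR7 and TLR9 to endosomes, was at 213, 242, and 209 CPM in shLuci and 99.4, 129, and 125 CPM in shRad21 cultures (log2 fold change -0.90, adjusted p = 0.000396). It also fell in vivo, from 226, 200.4, and 200.9 CPM to 127, 122, and 135 CPM (-0.69, adjusted p = 0.0003), so it was lower in both settings, without overlap of groups. *Lbp*, the LPS-binding protein, fell by 0.70 in culture (adjusted p = 0.00044) and by 0.56 in vivo (adjusted p = 0.00653). *Cd180*, a TLR4-related surface protein, rose in culture (0.82, adjusted p = 0.00184), from 47.5, 47.1, and 63.0 CPM to 84.4, 86.4, and 107 CPM. Its partner *Ly86* had between 0.0356 and 0.187 CPM or 0 in culture and fell in vivo by 1.5 (adjusted p = 0.00408). *Cnpy3*, a chaperone of Toll-like receptors, fell in vivo by 0.21 (adjusted p = 0.0498), a call that no fit without 1 library kept.

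Of the other adaptors, *Pik3ap1*, which links Toll-like receptors to PI3K, fell in both settings (-1.13 in culture, adjusted p = 0.000259, and -0.81 in vivo, adjusted p = 0.001). Of 16 kinases and ubiquitin ligases, 4 were lower in culture, *Ikbke* (-0.87), *Map3k8* (-0.68), *Peli1* (-0.36), and *Tab2* (-0.30), and 0 in vivo, where 2 had an unadjusted p under 0.05 and DESeq2 called 0. *Irak1* and *Traf6*, which act beside *Irak2*, were among those that did not pass in either setting. *Irak4*, the kinase that acts with them, did not pass either, but in culture its log2 difference of 0.28 (adjusted p = 0.226) became 0.30 with the replicate block (adjusted p = 0.0376 in edgeR). Of 8 negative regulators, *Tnfaip3* (-1.10), *Tnip1* (-1.14), and *Zc3h12a* (-1.21) fell and *Dusp1* rose (0.46) in culture, and *Irak3* rose in vivo (0.38). Of 7 transcription factors, *Rel* (-0.27), *Irf5* (-0.86), and *Irf8* (-1.07) fell in culture, and *Irf5* (-0.59) and *Irf8* (-1.76) fell in vivo. Receptors of the IL-1 family, which use the same adaptor, were called for *Il1r1* (-1.46 in culture, -0.79 in vivo), *Il18r1* (-1.13 and -1.26), *Il18rap* in vivo (-0.77), and *Il1rl1* in culture, where it was higher (1.93, and 0.90 without shRad21 replicate 3).

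Of 22 genes that Toll-like receptor signaling is known to switch on, 15 were tested in culture and 12 fell, with a median log2 fold change of -1.83, and 13 were tested in vivo, where 3 fell and 1 rose, with a median of -0.60. The shares of all genes tested were 8.06% lower and 6.18% higher in culture, and 5.32% lower and 5.65% higher in vivo. These medians cover only genes that passed the expression filter, which *Il1b* did in culture through its shLuci libraries. With the replicate block, 13 output genes fell and 1 rose in culture. The output genes and the 10 sensing genes were not tested against each other. Among the genes tested, the largest falls in culture were those of the chemokine gene *Ccl5* (-3.58), the cytokine gene *Il1b* (-3.55), and the cyclooxygenase gene *Ptgs2* (-3.45). *Tnf* was at 98.1, 68.6, and 50.03 CPM in shLuci and 19.6, 22.6, and 18.4 CPM in shRad21 cultures (-1.83, adjusted p = 0.000255). *Cxcl10* (-2.34), *Ccl4* (-2.22), *Ccl3* (-2.20), *Cxcl2* (-1.98), *Nfkbiz* (-1.51), *Nfkbia* (-1.33), *Cd86* (-1.07), and *Icam1* (-0.69) also fell. *Ccl2* went the other way in culture, at 0.561, 3.69, and 2.57 against 2.23, 5.96, and 14.4 CPM (1.69, adjusted p = 0.102, and 0.00014 with the replicate block in edgeR). In vivo *Tnf* (-0.99), *Cd86* (-0.83), and *Ccl4* (-0.75) fell and *Tnfaip2* rose (0.79). The in vivo count of 4 became 8 with DESeq2, and 1 without shLuci replicate 2, without shLuci replicate 3, or without shRad21 replicate 1. *Il6* had too few reads to be tested in culture, with 4, 36, and 40 counts in shLuci and 1, 1, and 2 counts in shRad21 cultures, groups that did not overlap. *Il1a*, *Il1rn*, *Cd80*, *Il12b*, and *Cxcl1* also had too few reads to be tested in culture, with at most 12, 11, 10, 6, and 4 counts in any library. *Il1rn* had 1, 11, and 7 counts in shLuci and 1, 0, and 0 counts in shRad21 cultures, groups that did not overlap in CPM.

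**Figure D4:**
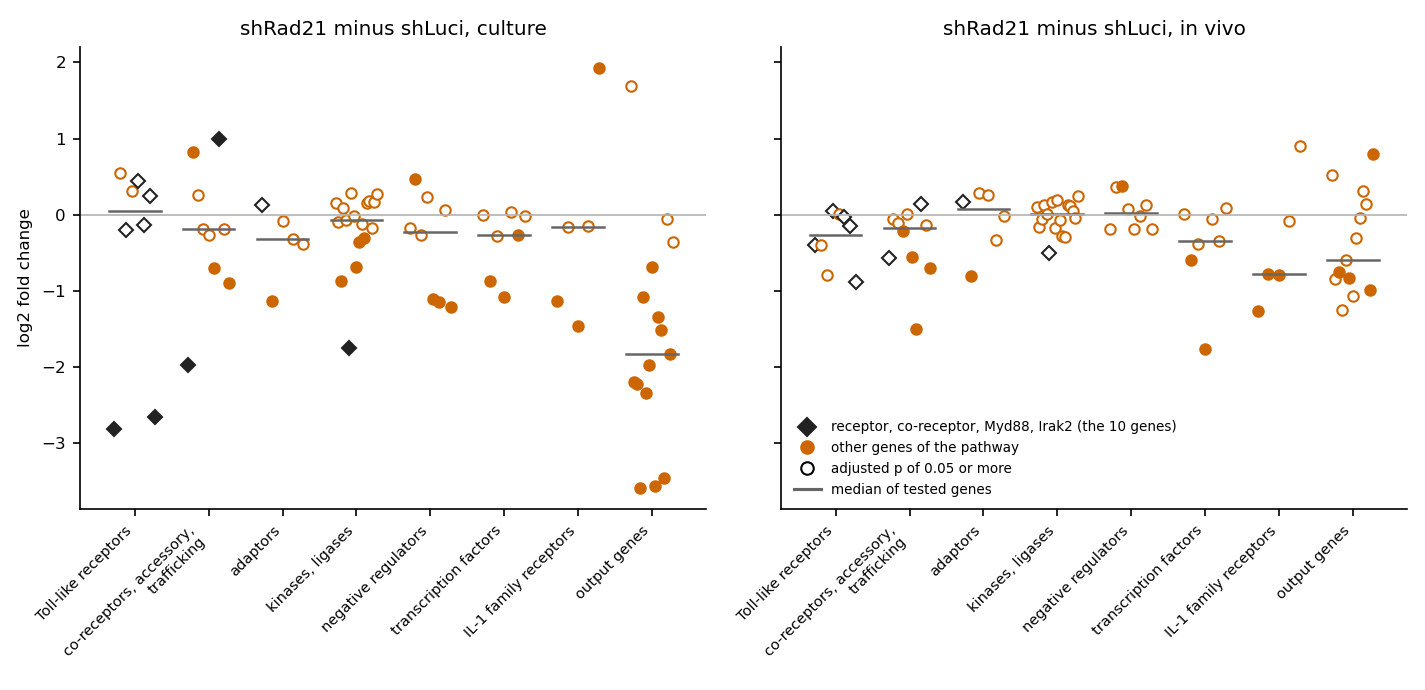
Log2 fold change, shRad21 minus shLuci, of the genes of each layer of the pathway in culture (left) and in vivo (right), with diamonds for the 10 sensing genes, circles for other genes, filled symbols for an adjusted p under 0.05, and a line at the median of the tested genes of a layer. In culture the median of the output genes is -1.83, below those of the other layers.

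Markers of other blood cells moved with some of these results. Of 10 monocyte and macrophage markers, 7 were tested in culture, where 5 were lower and 1 higher, and 9 in vivo, where 5 were lower. Their summed level was 202 to 268 CPM in shLuci and 172 to 187 CPM in shRad21 cultures, and 600 to 660 against 525 to 588 CPM in vivo. *Lyz2* held most of this sum, at 106 to 158 against 138 to 145 CPM in culture and 415 to 482 against 434 to 519 CPM in vivo. The other 9 markers summed to 95.3 to 130 against 30.9 to 42.8 CPM in culture and to 145 to 187 against 69.3 to 90.6 CPM in vivo. *Csf1r* was at 16.8, 25.1, and 16.0 CPM in shLuci and 4.16, 5.86, and 6.26 CPM in shRad21 cultures. *Cd14*, itself a monocyte gene, fell beside it. *Fcgr1* went the other way, at 3.51, 4.41, and 4.06 against 5.07, 7.98, and 9.46 CPM, and was the 1 marker called higher. Of the exonic bases of *Csf1r*, 15.12% overlap those of *Hmgxb3*. In the same cultures *Ly6c2* had at most 0.491 CPM and *Adgre1* between 0.0505 and 2.46 CPM. The fall of *Csf1r* was also called in vivo (-1.28), where none of the 9 sensing genes was. Of 7 dendritic markers, 2 were lower and 1 higher of 3 tested in culture, and 1 was lower of 7 in vivo, with sums of 11.1 to 17.9 against 7.72 to 10.4 CPM in culture and 20.6 to 30.9 against 11.6 to 19.0 CPM in vivo. B and plasma cell markers summed to 27.5 to 28 against 18.4 to 21.9 CPM in culture, where *Cd79b* accounted for most of the sum and *Ms4a1* was at 0, beside the fall of *Tlr9*. In vivo, 6 of 9 of these markers were lower, with sums of 175 to 436 against 134 to 216 CPM. The 7 neutrophil markers summed to 1.53 to 4.07 CPM in culture, with *Ly6g* at 0, and to 146 to 258 against 88.2 to 265 CPM in vivo. Mast cell and basophil markers summed to 11.2 to 19.6 against 25.1 to 80.0 CPM in culture and to 96.7 to 117 against 133 to 207 CPM in vivo. *Cpa3* held most of these sums, with means of 10.2 against 42.09 CPM in culture and 62.13 against 130.6 CPM in vivo. Of 4 tested in culture, 1 was higher (*Cpa3*), or 3 with the replicate block, and the mean of *Mcpt8* was lower without a call. Of 6 tested in vivo, 2 were higher. *Ly96* was higher in the same cultures but did not pass the test in vivo, where this sum was also higher. Megakaryocyte markers summed to 251 to 368 against 469 to 723 CPM in culture and 210 to 293 against 416 to 547 CPM in vivo. *Itga2b* held most of these sums, at 198 to 313 against 397 to 612 CPM in culture. In vivo *Itga2b* was at 176 to 260 against 352 to 481 CPM. Of 4 tested in culture, 3 were higher and *Ppbp* was lower, and of 4 tested in vivo, 3 were higher. T and NK cell markers summed to 38.0 to 54.4 against 27.1 to 32.8 CPM in culture. In vivo their sums were 379 to 500 against 264 to 293 CPM. Erythroid markers summed to 12.7 to 15.4 against 14.3 to 19.8 CPM in culture and 56.9 to 108 against 50 to 71.4 CPM in vivo. *Nkg7* held most of the T and NK cell sum in vivo, at 298 to 402 against 189 to 217 CPM, while *Klrb1c* rose there from 3.88 to 4.36 CPM to 42.2 to 46.7 CPM (log2 fold change 3.46, adjusted p = 4.69e-07). The part of these markers in the levels of the sensing genes was not tested.

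Over the 12 libraries, after the mean of each setting was subtracted, the gene outside the lists whose log2 CPM was most like that of *Irak2* was *Irf2bp2* (Pearson r = 0.971), followed by *Heatr9* (0.961) and *Prtn3* (0.959). For *Cd14* these were *Prtn3* (0.958), *Arhgap26* (0.957), and *Lhfpl2* (0.955), and the correlation between *Irak2* and *Cd14* was 0.939. For *Tlr4* the closest gene was *Usp32* (0.927), and for *Tlr2* the closest were *Hacl1* (0.924), *Pttg1* (0.919), and *Saraf* (0.916). *Tlr2* and *Tlr4* had an r of -0.29 with each other. *Ly96* ran opposite to *Irak2* (-0.91) and *Tlr9* (-0.90). These values describe libraries that share a knockdown difference, a kit, and a lane within each setting, and the highest r among all genes tested is high by selection.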

How the data were processed

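RNA-seq of 12 libraries was used, 3 per group, grouped by their deposited labels. The authors depleted rRNA reads, trimmed and mapped the reads to GRCm38 with TopHat2 (2.0.11 by their processing notes), and counted them per gene with HTSeq (0.6.1), and the values they deposited are whole-number counts without normalization. Annotation release and strand setting are not given in the sources used here. Of 46078 genes, 45229 matched GENCODE M21, which gave symbols, positions, and exonic lengths. Levels are CPM scaled by TMM over the 12 libraries, and RPKM are CPM per kb of exon.

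Each setting was tested in its own 6 libraries with edgeR 4.0.16 (R 4.3.3), using the quasi-likelihood test after filterByExpr (minimum count 10), with Benjamini-Hochberg adjustment over all genes tested and a threshold of 0.05. Control cells and the interaction were tested in a 4-group model of the 12 libraries. The scripts were tested on simulated counts. DESeq2 1.42.0, 2 other scalings, 2 other filters, a replicate block, a joint model, and leaving out each library were tried. In culture, deviations of libraries with the same replicate number correlated (r = 0.216 to 0.262, against -0.322 to 0.0686 for other pairs). In vivo such deviations did not (0.024 to 0.0694). A block on this number is thus warranted in culture. The main fits did not use it, and values from the block are named as such. All 10 genes are named. Of the other lists, genes are named where they passed the threshold in a knockdown comparison, and some because they had few reads. *Tlr12* and *Ccl2* are named because the block changed the call. *Irak1*, *Irak4*, *Traf6*, *Tlr8*, *Il6*, and the markers are named for their role, chosen after their values were seen. The sensing genes and lists were chosen with earlier results of these data known. Marker sums without their most abundant gene were added after the data were seen. Values of some other genes are not reported here.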

Additional observations from a re-analysis of the deposited data

Results flagged for a closer look

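The knockdown effect differed between culture and in vivo, by the interaction test in edgeR, for 17 of the sensing, pathway, and output genes, and for 7 of the cell type markers, which are not listed here. Each value below is the log2 effect in culture minus that in vivo. Of the sensing genes, *Irak2* had -1.24 and *Ly96* 0.87. Of the accessory genes, *Cd180* had 0.89. Of the kinases, *Ikbke* had -0.81 and *Map3k8* -0.87. Of the negative regulators, *Tnfaip3* had -0.90, *Tnip1* -1.11, and *Zc3h12a* -1.01. Of the output genes, *Ccl3* had -1.35, *Ccl4* -1.46, *Ccl5* -2.32, *Nfkbia* -1.29, *Nfkbiz* -1.80, and *Tnfaip2* -1.14. The differences of *Ly96*, *Cd180*, *Map3k8*, *Zc3h12a*, *Ccl3*, and *Ccl4* missed the threshold in at least 1 fit that left out 1 library. The fitted differences of *Cxcl2* (-4.60), *Il1b* (-4.65), and *Ptgs2* (-4.92) rest on in vivo levels near the floor of 3 counts and depend on the prior count, and that of *Ptgs2* became -2.51 without shRad21 in vivo replicate 2.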

How the results depend on the processing

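The 5 calls among the 10 sensing genes in culture and the 5 between control cells held in every alternative run that tested the gene. Under a filter of a mean of at least 1 CPM, *Tlr1* in culture and *Tlr9* between control cells were not tested. In culture, *Tlr4* was added by DESeq2, by no expression filter (adjusted p = 0.00178), and by the replicate block, which changed no other call of these genes. In vivo, where edgeR called 0, no expression filter gave 2 (*Irak2* and *Tlr7*), the joint model of 12 libraries gave 1 (*Irak2*, adjusted p = 0.0489), and leaving out 1 library gave 0 to 1. The number with an effect that differed between settings was 1 to 2 without 1 library, and without an expression filter *Tlr1* (adjusted p = 0.0376) and *Tlr7* (0.00556) joined *Irak2* and *Ly96* was lost (0.0588). The output genes called in vivo were 8 with DESeq2, 8 with no expression filter, 7 in the joint model, and 1 to 4 without 1 library, against 4. Directions turned for values that had not passed the test. The interaction of *Tlr6* (0.02) was -0.000527 with upper-quartile scaling and -0.00456 without a filter. Leaving out 1 library, it ranged from -0.0599 to 0.124, *Tlr1* in vivo from -0.99 to 0.11, *Tlr2* in vivo from -0.0118 to 0.134, *Tlr4* in vivo from -0.21 to 0.14, *Tlr7* in culture from -0.37 to 0.65, and the interaction of *Myd88* from -0.0838 to 0.0123. *Tlr6* was called between control cells with library size scaling (-0.40, adjusted p = 0.0237), where the median of all genes was -0.18, *Tlr1* without a filter (1.53, 0.00557) and without shLuci in vivo replicate 3 (2.02, 0.046), and *Tlr4* without a filter (0.35, 0.0269) and without shLuci culture replicate 1 (0.48, 0.0496). Among the other pathway and output genes, 7 of 30 calls in culture were lost without at least 1 library (*Cd86*, *Dusp1*, *Icam1*, *Il1rl1*, *Peli1*, *Rel*, *Tab2*). The same held for 6 of 15 calls in vivo (*Ccl4*, *Cd86*, *Cnpy3*, *Il18rap*, *Il1r1*, *Tnf*). It also held for 7 of 15 interactions (*Ccl3*, *Ccl4*, *Cd180*, *Il1b*, *Map3k8*, *Ptgs2*, *Zc3h12a*). Over all genes, calls without a filter numbered 2829 in vivo against 1749, and 1409 for the interaction against 796 (1256 with DESeq2). *Tlr9*, *Tlr1*, and *Cd14* had at most 46 counts in a library, and depth limits what can be said of them in vivo. Causes of these changes were not tested.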
